A study of Mus musculus with 7 samples.

Results

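Phgdh, Psat1, Psph, Shmt1, Shmt2, Mthfd2, Pycr1, Aldh18a1 and Gpt2 encode enzymes with which tumour cells make serine, glycine, one-carbon units, proline and alanine. They were chosen as amino acid synthesis enzymes used by mammary tumours, and every probe set whose single platform gene symbol was one of these 9 was followed. A probe set is a group of array probes read out as 1 value. Of the 22690 probe sets of the array, 25 met this rule, and they stood for 8 of the 9 genes. Pycr1, the mitochondrial enzyme of the last step of proline synthesis, had no probe set with its symbol in the platform annotation and is not analysed here. A further 2 probe sets that the annotation shares between Phgdh and another symbol were left out.

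Expression was measured on 1-colour arrays of mouse transplant tumours, 3 arrays of Met1 and 4 of DB7. Met1 and DB7 are mammary tumour lines known to derive from mice in which the mammary tumour virus promoter drove the polyoma middle T oncogene. Both kinds of tumour thus began with a middle T transgene. Met1 carries the intact oncogene and is known to metastasise readily, whereas DB7 carries a mutant form that is impaired in coupling to PI3-kinase and seldom metastasises. Each group is 1 line, so any difference between the lines, the transgene's form included, moves with the group. The design text of the series speaks of tumours of first-generation outcrosses, but the sample labels name transplants of these lines, and the labels were followed. The labels leave out the host's strain and age, the transplant site and whether each array came from its own animal. The p-values therefore reflect how far these arrays scatter, and that scatter may be technical.

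Serine synthesis branches off glycolysis. Phgdh oxidises 3-phosphoglycerate, Psat1 transfers an amino group from glutamate to the product, and Psph removes the phosphate. Serine hydroxymethyltransferases then split serine into glycine and a one-carbon unit carried by folate, Shmt1 in the cytosol and Shmt2 in mitochondria. Mthfd2 oxidises the mitochondrial one-carbon unit on its way to formate, which feeds purine and thymidylate synthesis. Aldh18a1 starts proline synthesis from glutamate, and Gpt2 is the mitochondrial transaminase that makes alanine and 2-oxoglutarate. ATF4, the transcription factor of the amino acid response, is known to induce many of these genes.

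The epithelial markers Epcam, Krt8, Krt18, Cdh1 and Cldn4 lay above the array median on all 7 arrays, as mammary carcinoma should show. Their mean log2 level was 9.80 to 10.25 in Met1 and 10.59 to 10.72 in DB7, and the groups did not overlap. The mean of 6 proliferation genes (Mki67, Top2a, Ccna2, Birc5, Cdk1 and Mcm5) was 8.22 to 8.30 in Met1 and 9.43 to 9.85 in DB7. All 5 measured B cell markers lay below the array median in Met1. Of these, Cd79a, Cd79b and Pou2af1 lay below it on every DB7 array too. Jchain and Ms4a1 lay above it only on DB7 1 and DB7 4, with Jchain at 8.33 and 9.33. DB7 2 and DB7 3 had B cell list means of 5.29 and 5.42. DB7 1 and DB7 4 stood apart from these DB7 arrays, at 6.53 and 6.73. Their fibroblast list means were also the highest of DB7, at 9.71 and 9.09 against 8.47 and 8.04. Met1 ranged from 8.92 to 9.63, so DB7 1 lay above it, DB7 4 within it and the other DB7 arrays below it. Endothelial list means were 6.85 to 7.15 in Met1 and 6.61 to 7.25 in DB7, and those of macrophages 8.55 to 9.09 and 8.11 to 9.21. T cell list means were 5.88 to 6.09 in Met1 and 5.98 to 6.40 in DB7, adipocyte means 5.42 to 6.90 and 5.40 to 7.11, and skeletal muscle means 4.88 to 5.01 and 4.85 to 4.91. The part of any of these lists in the results below was not tested. In whole tumours, fewer cells of a type and less RNA per cell cannot be told apart.

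Of the 8 measured genes, 3 (Phgdh, Shmt1 and Mthfd2) were lower in Met1 than in DB7, while Psat1, Psph, Shmt2, Aldh18a1 and Gpt2 did not pass the test. Only probe sets brighter than their array's median on 3 or more of the 7 arrays were tested. Of the 25 probe sets, 19 passed this filter, at least 1 for each of the 8 genes. In limma with Benjamini-Hochberg adjustment over all 11704 tested probe sets, 9 of the 19 were lower in Met1 at an adjusted p under 0.05, 0 were higher and 10 did not pass. Over all tested probe sets 31.0% passed, 17.6% as lower and 13.4% as higher. The 9 belonged to Phgdh (4 of 4 tested), Shmt1 (3 of 3) and Mthfd2 (2 of 2), and probe sets of a gene are not independent of each other. The same 9 were those whose groups did not overlap, where 39.4% of all tested probe sets had groups that did not overlap and 22.7% had every Met1 array below every DB7 array. One of the 9, a Mthfd2 probe set, passed the filter only through its DB7 values. The median difference of the 19 was -0.19 on the log2 scale, Met1 minus DB7, against -0.04 over all tested probe sets.

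**Figure D1:**
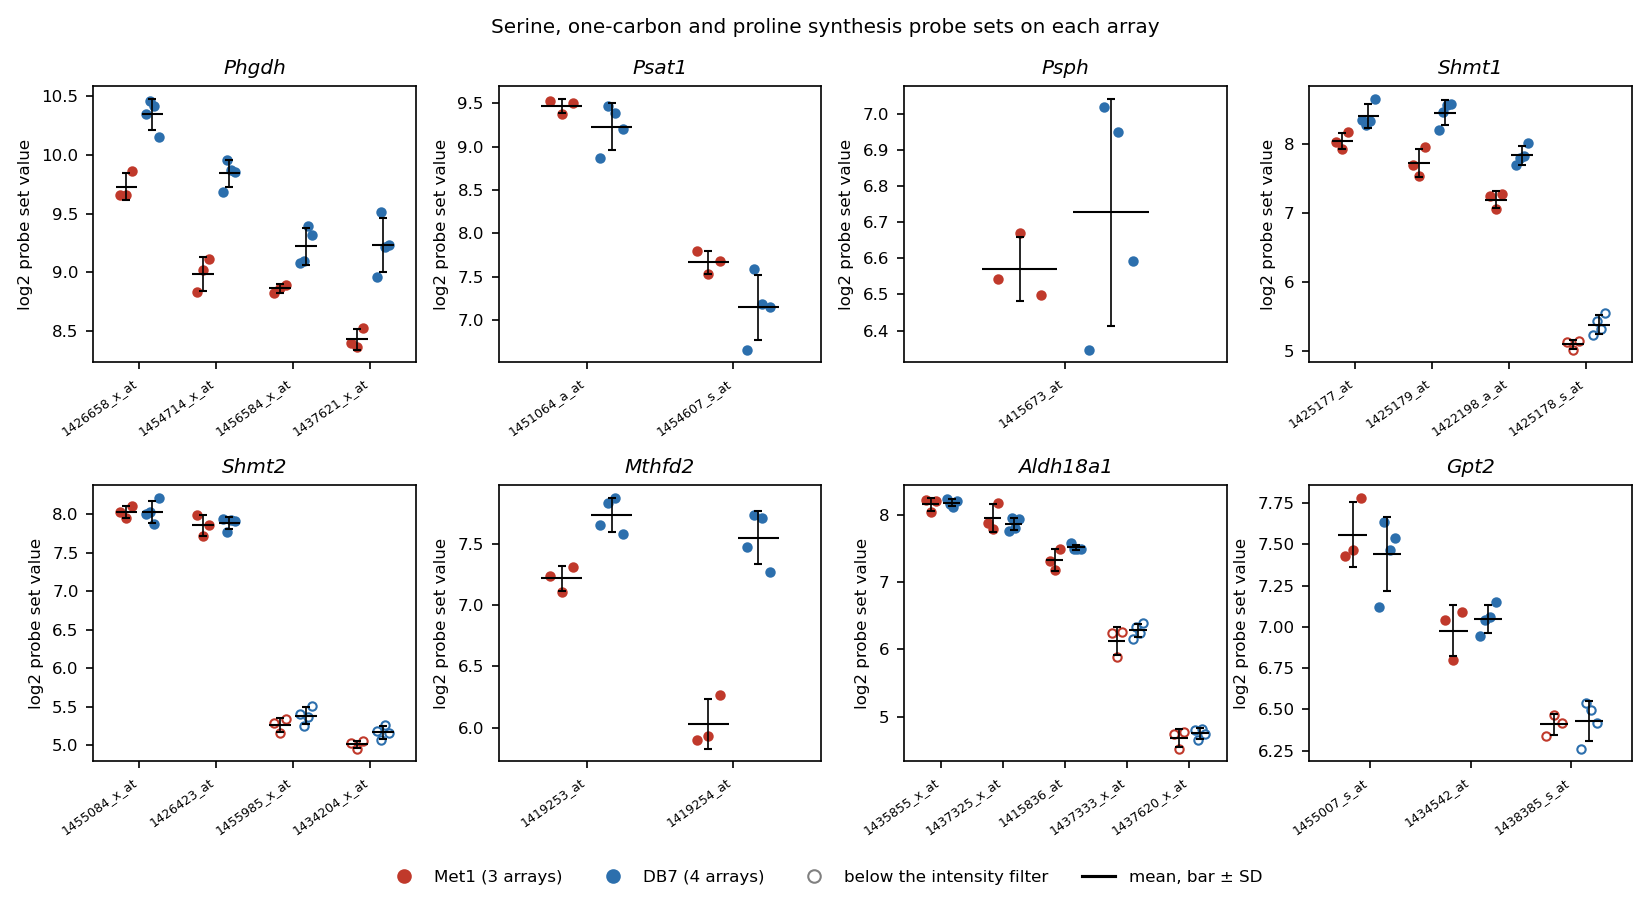
Log2 values of the 25 probe sets on each array, by gene, with Met1 at the left and DB7 at the right of each probe set; bars give the mean ± SD (n = 3 and 4) and open points mark the 6 probe sets below the intensity filter. All Met1 points lie below all DB7 points for the 4 probe sets of Phgdh, the 4 of Shmt1 and both of Mthfd2.

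Phgdh, the enzyme that commits glycolytic carbon to serine, was lower in Met1 by all 4 of its probe sets. Probe set 1454714_x_at measured 8.83, 9.02 and 9.12 in Met1, against 9.69, 9.95, 9.87 and 9.85 in DB7. The highest Met1 array lay below the lowest DB7 array. The difference was -0.85 (SE 0.10, 1.8-fold; limma, adjusted p = 0.000365). Probe set 1437621_x_at measured 8.40, 8.36 and 8.53 in Met1, against 8.96, 9.52, 9.22 and 9.23 in DB7, a difference of -0.80 (SE 0.13; limma, adjusted p = 0.00174). Probe set 1426658_x_at, the brightest, measured 9.66, 9.66 and 9.86 in Met1, against 10.34, 10.46, 10.41 and 10.15 in DB7 (difference -0.61, SE 0.10; limma, adjusted p = 0.00201). These 3 calls held under all 15 alternatives run for them. The smallest difference was that of 1456584_x_at, at 8.83, 8.87 and 8.90 in Met1 against 9.08, 9.09, 9.39 and 9.31 in DB7 (-0.36, SE 0.10; limma, adjusted p = 0.0253). Its call was lost without Met1 1 (difference -0.34, adjusted p = 0.0854), Met1 2 (-0.36, 0.0805), Met1 3 (-0.37, 0.0713), DB7 3 (-0.30, 0.0567) or DB7 4 (-0.33, 0.0565). All 4 probe sets end in _x_at, the array maker's mark for probes that can bind other transcripts, so signal of a related sequence cannot be told apart from Phgdh.

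The next 2 enzymes of serine synthesis did not pass the test. Psat1 measured 9.53, 9.37 and 9.50 in Met1, against 8.87, 9.46, 9.39 and 9.20 in DB7, by probe set 1451064_a_at. The groups overlapped, and the difference of 0.24 (SE 0.14, 95% interval -0.08 to 0.56) did not pass (limma, adjusted p = 0.24). Without DB7 1 it was 0.12, and without DB7 1 and DB7 4 it was 0.04. Probe set 1454607_s_at measured 7.79, 7.53 and 7.68 in Met1, against 6.66, 7.59, 7.18 and 7.16 in DB7. DB7 1 was the lowest array and DB7 2 overlapped Met1 (difference 0.52, SE 0.19, limma, adjusted p = 0.0619). This probe set passed without DB7 2 (0.67, adjusted p = 0.0142), under quantile normalization (0.56, 0.0479) and with array weights (0.52, 0.0171), and without DB7 1 its difference was 0.36. Psph, the phosphatase of the last step, measured 6.54, 6.67 and 6.50 in Met1, against 6.35, 7.02, 6.95 and 6.59 in DB7. The Met1 values lay within the DB7 range, and the difference of -0.16 (95% interval -0.51 to 0.20) did not pass (limma, adjusted p = 0.502). Psph passed the intensity filter on exactly 3 arrays. Without DB7 1 and DB7 4, the DB7 arrays with more B cell and fibroblast transcripts, it was lower in Met1 by -0.41 (limma, adjusted p = 0.0149). The DB7 arrays left, DB7 2 and DB7 3, had fibroblast list means of 8.47 and 8.04, below the 8.92 to 9.63 of Met1. The part of this difference between the groups was not tested.

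Shmt1, the cytosolic serine hydroxymethyltransferase, was lower in Met1 by each of its 3 tested probe sets. Probe set 1425179_at measured 7.69, 7.54 and 7.95 in Met1, against 8.20, 8.47, 8.58 and 8.59 in DB7. Every Met1 array lay below every DB7 array, with a difference of -0.73 (SE 0.13, 1.66-fold, limma, adjusted p = 0.00294). Probe set 1422198_a_at measured 7.24, 7.05 and 7.28 in Met1, against 7.70, 7.81, 7.83 and 8.02 in DB7 (difference -0.64, SE 0.10; limma, adjusted p = 0.00136). The brightest probe set, 1425177_at, measured 8.04, 7.94 and 8.17 in Met1, against 8.36, 8.28, 8.33 and 8.66 in DB7 (-0.36, SE 0.11; limma, adjusted p = 0.0371). DB7 4 was the highest array by all 3. The call of 1425177_at was lost without Met1 1 (-0.35, adjusted p = 0.105), Met1 2 (-0.30, 0.146), Met1 3 (-0.42, 0.0557), DB7 3 (-0.38, 0.0571) or DB7 4 (-0.27, 0.0559), without DB7 1 and DB7 4 (-0.26, 0.0925) and without the intensity filter (0.0543). The calls of the other 2 held under all 15 alternatives. The remaining probe set, 1425178_s_at, lay below the array median on all 7 arrays, at 5.13, 5.02 and 5.14 in Met1 and 5.22, 5.43, 5.32 and 5.55 in DB7, and was not tested.

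Shmt2, the mitochondrial counterpart of Shmt1, did not pass by either of its tested probe sets. Probe set 1455084_x_at measured 8.03, 7.95 and 8.11 in Met1, against 8.01, 8.03, 7.87 and 8.22 in DB7. Its difference of -0.0012 had a 95% interval of -0.22 to 0.21 (limma, adjusted p = 0.994). Probe set 1426423_at measured 7.98, 7.72 and 7.86 in Met1, against 7.94, 7.77, 7.92 and 7.92 in DB7 (difference -0.03, 95% interval -0.23 to 0.17; limma, adjusted p = 0.818). The intervals allow a Met1 level at a difference as low as -0.23 or as high as 0.21, and they do not show that the lines are alike. The other probe sets of Shmt2 lay below the array medians and were not tested. Of these, 1455985_x_at measured 5.16 to 5.34 in Met1 and 5.24 to 5.51 in DB7 (difference -0.12). By 1434204_x_at every Met1 array, at 4.96 to 5.05, lay below every DB7 array, at 5.07 to 5.27 (difference -0.16).

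Mthfd2, the mitochondrial methylenetetrahydrofolate dehydrogenase and cyclohydrolase, was lower in Met1 by its brighter probe set. Probe set 1419253_at measured 7.24, 7.11 and 7.31 in Met1, against 7.66, 7.83, 7.88 and 7.58 in DB7. The groups did not overlap, with a difference of -0.52 (SE 0.10, 1.43-fold; limma, adjusted p = 0.0038), and the call held under all 15 alternatives. Probe set 1419254_at measured 5.90, 5.93 and 6.26 in Met1, against 7.48, 7.74, 7.72 and 7.28 in DB7. Its Met1 values lay below the array medians of 6.53 to 6.59, so it entered the test only because its DB7 values are high, and its difference of -1.52 is given as a description. The 2 probe sets had the same direction and not the same size. The filter on all 7 arrays left 1419254_at out, as did leaving out DB7 1 and DB7 4.

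Aldh18a1, which starts proline synthesis, did not differ past the threshold by any of its 3 tested probe sets. The brightest, 1435855_x_at, measured 8.22, 8.04 and 8.21 in Met1, against 8.24, 8.16, 8.12 and 8.21 in DB7 (difference -0.03, 95% interval -0.21 to 0.15; limma, adjusted p = 0.814). Probe set 1437325_x_at differed by 0.09 (95% interval -0.15 to 0.33) and 1415836_at by -0.19 (95% interval -0.38 to 0.01; limma, adjusted p = 0.577 and 0.139). Of these, 1415836_at held 1 identical value, 7.49, in 4 arrays (Met1 3, DB7 2, DB7 3 and DB7 4), beside 7.32 and 7.17 in Met1 1 and Met1 2 and 7.58 in DB7 1. Equal values on at least 2 arrays occurred in 7 of the 25 probe sets and in 42.2% of the 22626 probe sets that are not controls. Within a group they narrow the spread on which a test rests, as in DB7 for 1415836_at. In the others of the 7 the value was shared between a Met1 and a DB7 array, which leaves the spread within a group as it was. The 2 untested probe sets of Aldh18a1 differed by -0.16 and -0.07.

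Gpt2, the mitochondrial alanine transaminase, measured 7.43, 7.46 and 7.78 in Met1, against 7.12, 7.64, 7.46 and 7.54 in DB7, by probe set 1455007_s_at. The groups overlapped and the difference was 0.12 (95% interval -0.19 to 0.43; limma, adjusted p = 0.552). Probe set 1434542_at measured 7.04, 6.80 and 7.09 in Met1, against 6.95, 7.04, 7.06 and 7.15 in DB7 (difference -0.07, 95% interval -0.28 to 0.14; limma, adjusted p = 0.597). The untested 1438385_s_at differed by -0.02.

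**Figure D2:**
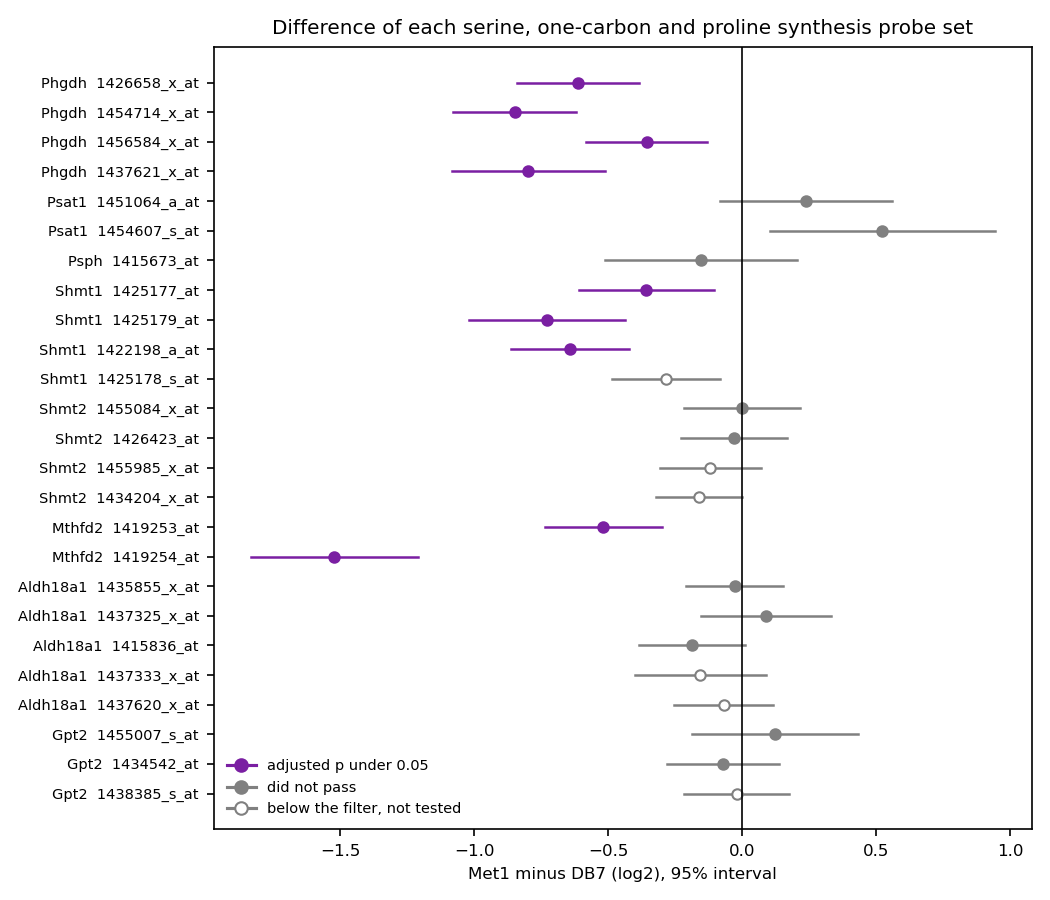
Met1 minus DB7 (log2) for each of the 25 probe sets, where lines give limma's 95% interval; filled purple points passed at an adjusted p under 0.05 and open points were not tested. The 9 purple probe sets of Phgdh, Shmt1 and Mthfd2 lie between -1.52 and -0.36, and the tested probe sets of the other 5 genes between -0.19 and 0.52.

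Whether consecutive or parallel enzymes changed unequally was asked with the ratio of 2 genes within each array, each gene by its brightest probe set. The level of such a ratio has no meaning across probe sets, and its difference between the lines also depends on which probe sets are taken. For Psat1 over Phgdh, the log2 ratio was -0.13, -0.29 and -0.35 in Met1, against -1.48, -0.99, -1.02 and -0.95 in DB7. The groups did not overlap, and the ratio was higher in Met1 by 0.85 (exact permutation test over the 35 divisions of the arrays, two-sided, p = 0.0286, the smallest it allows, and 0.0476 adjusted over the 5 pairs). By these probe sets Phgdh differed by -0.61 and Psat1 by 0.24, which did not pass, so this ratio in large part repeats the Phgdh difference. For Shmt2 over Shmt1 the log2 ratio was 0.00, 0.01 and -0.06 in Met1, against -0.35, -0.24, -0.46 and -0.45 in DB7. The mitochondrial over cytosolic ratio was thus higher in Met1 by 0.36 (exact permutation test, p = 0.0286, adjusted p = 0.0476). By these probe sets Shmt2 differed by -0.0012 and Shmt1 by -0.36, so this ratio repeats the Shmt1 difference. Psph over Psat1 was lower in Met1 by -0.39, at -2.90 ± 0.17 in Met1 against -2.51 ± 0.08 in DB7 (SD, n = 3 and 4; exact permutation test, p = 0.0286, adjusted p = 0.0476). Its groups did not overlap. A single pair at the smallest p would not pass the adjustment over 5 pairs, so the pairs that passed did so only together. Psat1 over Phgdh and Psph over Psat1 share Psat1, so these pairs are not independent.

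Mthfd2 over Shmt2 was -0.80, -0.84 and -0.80 in Met1, against -0.35, -0.20, 0.01 and -0.63 in DB7. The groups did not overlap, yet 1 other division of the arrays gave a difference at least as large (-0.52; exact permutation test, p = 0.0571, adjusted p = 0.0714). By the brightest probe sets Mthfd2 differed by -0.52 and Shmt2 by -0.0012, so this ratio repeats the Mthfd2 difference. With the mean of all of a gene's probe sets, 1419254_at and the 2 untested probe sets of Shmt2 included, the ratio differed by -0.94. Gpt2 over Psat1, both transaminases that use glutamate, differed by -0.12 (exact permutation test, p = 0.4). The planned ratio of Pycr1 over Aldh18a1 could not be formed. Leaving out any array makes a p under 0.05 unreachable for 2 against 4 or 3 against 3 arrays.

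**Figure D3:**
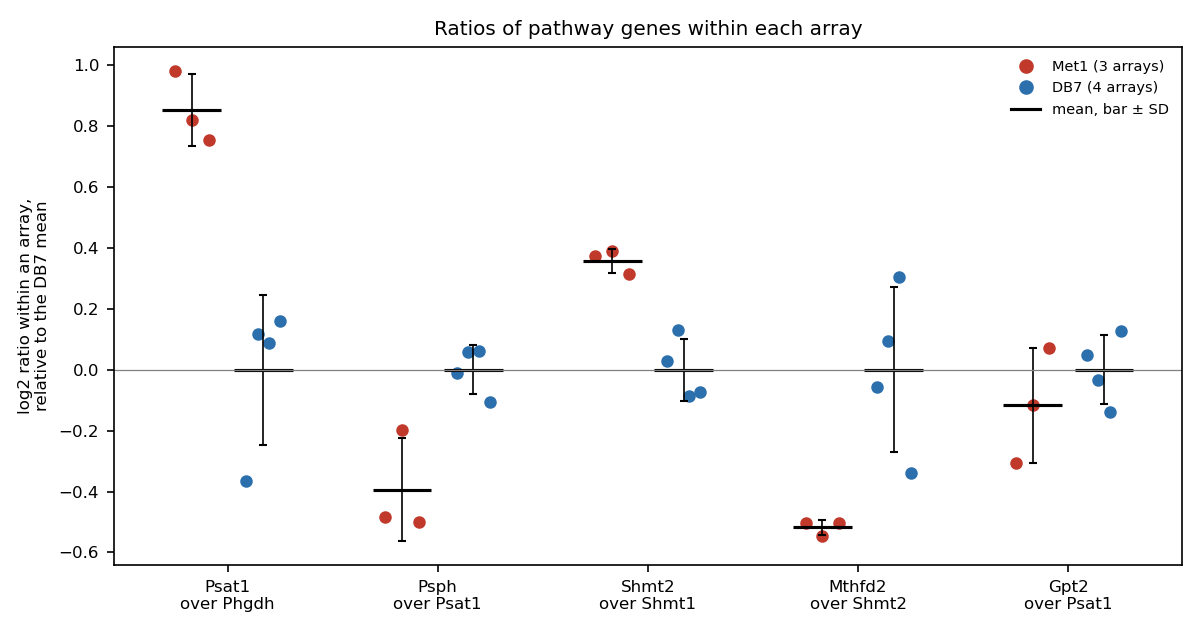
Log2 ratio of 2 genes within each array, shifted so that the DB7 mean of each pair is 0, for 3 Met1 arrays (left of each pair) and 4 DB7 arrays (right), with mean ± SD. The Met1 points of Psat1 over Phgdh and of Shmt2 over Shmt1 all lie above the DB7 points, those of Psph over Psat1 and Mthfd2 over Shmt2 all below, and those of Gpt2 over Psat1 overlap.

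The promoters of the 3 genes that were lower in Met1, and that of Shmt2 for contrast, are shown as the 150 bases before the gene's RefSeq start (build GRCm38.p6). All 4 genes lie on the minus strand, and the sequences run 5′ to 3′ along the gene. Capitals mark CCAAT or its reverse complement ATTGG, the letters of the CCAAT box bound by NF-Y.
Phgdh (chr3:98339970-98340119): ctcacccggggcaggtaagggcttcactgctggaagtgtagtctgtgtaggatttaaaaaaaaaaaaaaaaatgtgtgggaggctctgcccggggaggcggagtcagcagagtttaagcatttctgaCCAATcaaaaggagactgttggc
Shmt1 (chr11:60811266-60811415): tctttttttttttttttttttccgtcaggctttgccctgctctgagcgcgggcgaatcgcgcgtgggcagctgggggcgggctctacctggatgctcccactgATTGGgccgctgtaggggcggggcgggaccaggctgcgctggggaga
Mthfd2 (chr6:83317605-83317754): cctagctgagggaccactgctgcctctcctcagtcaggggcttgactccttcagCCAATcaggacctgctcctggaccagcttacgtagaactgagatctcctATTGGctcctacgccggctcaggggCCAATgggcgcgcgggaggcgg
Shmt2 (chr10:127522445-127522594): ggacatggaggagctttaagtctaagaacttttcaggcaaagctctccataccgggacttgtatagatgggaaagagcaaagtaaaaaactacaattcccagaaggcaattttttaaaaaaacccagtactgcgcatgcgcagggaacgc
These stretches hold 1 match in Phgdh, 1 in Shmt1, 3 in Mthfd2 and 0 in Shmt2. Matches stood in promoters of genes that passed and of genes that did not. Over the whole windows Psat1 (3 in 1 of its 2 windows) and Psph (2), which did not pass, and Pycr1 (2) also hold it, beside Phgdh (2), Shmt1 (1) and Mthfd2 (3), and those of Gpt2 and Aldh18a1 do not. The motif is common: 37.4% of the 32851 RefSeq promoter windows of 300 bases hold it on either strand, and it was searched for after these letters had been read.

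The 2 motifs planned for the comparison were TGATGNAA, the core of the composite element bound by ATF4, and CACGTG, the E-box bound by MYC, both on either strand of the window from 250 bases before to 50 after the start. Neither was found in the windows of Phgdh, Psat1, Psph, Shmt1, Shmt2, Mthfd2 or Gpt2. Of all windows 3.97% hold TGATGNAA and 7.15% hold CACGTG. The E-box stood at position -59 from the start of Aldh18a1, and the ATF4 core at -103 from that of Pycr1, the gene without a probe set. They are shown with 20 bases on each side and the match in capitals, both on the minus strand of the genome.
Aldh18a1 (chr19:40588497-40588542): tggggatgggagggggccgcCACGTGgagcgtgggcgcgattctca
Pycr1 (chr11:120643824-120643871): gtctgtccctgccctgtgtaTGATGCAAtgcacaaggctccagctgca
A match or its lack in this window describes these letters only. The GC box letters GGGCGG, present in 35.7% of windows, were found in those of Psph, Gpt2, Shmt1, Pycr1, Aldh18a1 and 1 of the 2 Psat1 windows, and not in those of Phgdh, Mthfd2 and Shmt2.

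In the wider serine, glycine and folate pathway few other genes differed. Of 12 tested genes besides the 6 followed here, 1 was lower, 1 higher and 10 did not pass (median difference -0.06, against -0.04 over all 7482 tested genes, of which 30.9% passed, 17.9% as lower and 13.0% as higher). Mtrr, which reactivates methionine synthase, was lower in Met1 at 6.98 ± 0.07 against 7.31 ± 0.11 in DB7 (log2, SD, n = 3 and 4; limma, adjusted p = 0.0173). Ggh, the hydrolase that trims folate polyglutamates, was higher at 8.12 ± 0.16 against 7.46 ± 0.40 (SD, n = 3 and 4; limma, adjusted p = 0.0302), with overlapping groups. Mthfd1, the cytosolic enzyme with 3 folate activities, differed by 0.19 (SE 0.10; limma, adjusted p = 0.174). The call of Mtrr was lost without Met1 1 (-0.31) or Met1 3 (-0.30), and that of Ggh without Met1 1 (0.63), Met1 2 (0.75), Met1 3 (0.61), DB7 1 (0.58), DB7 3 (0.54) or DB7 4 (0.69), or without DB7 1 and DB7 4 (0.58).

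The proline and ornithine genes that passed were all lower in Met1, 3 of 5 tested besides Aldh18a1 (median -0.38 over the 5), where 17.9% of all tested genes were lower. Oat, ornithine aminotransferase, which links ornithine to the proline precursor made by Aldh18a1, measured 8.48, 8.94 and 8.75 in Met1, against 10.13, 10.35, 10.41 and 10.04 in DB7. The groups lay more than 1 log2 unit apart (difference -1.51, SE 0.13, 2.85-fold; limma, adjusted p = 7.94e-05). Pycrl, the cytosolic relative of Pycr1, averaged 6.95 ± 0.10 in Met1, against 7.58 ± 0.17 in DB7 (SD, n = 3 and 4; difference -0.64, SE 0.10; limma, adjusted p = 0.00198). Both calls held under all 15 alternatives. P4ha1, a prolyl hydroxylase subunit of collagen synthesis, differed by -0.38 (SE 0.11; limma, adjusted p = 0.028). That call failed without Met1 1 (-0.41), Met1 3 (-0.30), DB7 3 (-0.34) or DB7 4 (-0.34), or without DB7 1 and DB7 4 (-0.35). Prodh, which degrades proline, lay at 6.52 in Met1 and 6.54 in DB7, below the filter.

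Among transaminases and amino acid transporters, 4 of 13 tested genes besides Gpt2 were lower in Met1 and 1 was higher (median -0.15), where 17.9% of all tested genes were lower and 13.0% higher. Slc38a1, a glutamine transporter, measured 8.16, 8.58 and 8.70 in Met1, against 9.52, 9.61, 9.68 and 9.78 in DB7 (-1.17, SE 0.13; limma, adjusted p = 0.000307). Slc1a5, a carrier of glutamine and other neutral amino acids, serine among them, measured 6.51, 7.14 and 6.75 in Met1, against 8.13, 7.78, 7.76 and 7.80 in DB7 (-1.07, SE 0.15; limma, adjusted p = 0.00102). Both calls held under every alternative in which the gene was tested. The transporter Slc38a2 was lower by -0.50 and Got1, the cytosolic aspartate transaminase, by -0.56 (limma, adjusted p = 0.0142 and 0.0202). The call of Slc38a2 was lost without Met1 1 (-0.40), and that of Got1 without Met1 1 (-0.48) or Met1 2 (-0.56). Slc7a5, the light chain of a leucine transporter, was higher in Met1 by 0.69 (SE 0.19; limma, adjusted p = 0.0219). That call failed without Met1 1 (0.75), Met1 2 (0.66), Met1 3 (0.67), DB7 2 (0.61) or DB7 3 (0.62). Gpt, the cytosolic relative of Gpt2, differed by -0.03, and the cystine transporter Slc7a11 lay below the filter at 5.33 in Met1 and 5.38 in DB7.

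Of 16 tested genes of the ATF4 response, 2 were lower, 3 higher and 11 did not pass (median -0.07). This share was near the 30.9% of all tested genes that passed, 17.9% as lower and 13.0% as higher. Atf4 itself measured 9.82, 9.84 and 9.92 in Met1, against 10.00, 10.14, 10.28 and 10.08 in DB7. The groups did not overlap, but the difference of -0.27 (SE 0.09) fell short of the threshold (limma, adjusted p = 0.0516). This probe set passed without DB7 1 (-0.31, limma, adjusted p = 0.0283) and without DB7 1 and DB7 4 (-0.35, limma, adjusted p = 0.0225). On all 7 arrays it passed with array weights (-0.27, limma, adjusted p = 0.0312) and without the intensity trend (-0.27, limma, adjusted p = 0.0455). The other tested probe set of Atf4 differed by only -0.04. Ddit3 and Atf3, stress transcription factors downstream of ATF4, were lower by -0.48 and -0.46 (limma, adjusted p = 0.006 and 0.0121). Cebpb, which pairs with ATF4, was higher by 0.95 (SE 0.11; limma, adjusted p = 0.000379), and Nupr1, a stress-induced cofactor, by 0.76 (limma, adjusted p = 0.0242), with Slc7a5 as the third. Asns, asparagine synthetase, measured 9.37, 9.62 and 9.88 in Met1, against 9.54, 10.19, 10.13 and 9.18 in DB7, and did not pass (-0.14, SE 0.24; limma, adjusted p = 0.712). Its lowest DB7 values were those of DB7 4 and DB7 1, and without both arrays it was lower in Met1 by -0.54 (limma, adjusted p = 0.0306). The DB7 arrays left there lay below Met1 in fibroblast list means, as given for Psph. The calls of Ddit3 and Cebpb held under all 15 alternatives, that of Atf3 was lost without Met1 2 (-0.43) or Met1 3 (-0.42), and that of Nupr1 without Met1 1 (0.74), Met1 2 (0.78) or Met1 3 (0.78).

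Of 18 tested cytosolic tRNA synthetase genes, which charge tRNAs with amino acids, 5 were lower in Met1, 1 was higher and 12 did not pass (median -0.22). Over all tested genes 17.9% were lower and 13.0% higher, with a median of -0.04. Aars, the alanine enzyme, was lower by -0.53 and Cars, the cysteine enzyme, by -0.45 (limma, adjusted p = 0.00426 and 0.00464). Gars, the glycine enzyme, was lower by -0.51 and Kars, the lysine enzyme, by -0.39 (limma, adjusted p = 0.0221 and 0.0114). Wars, the tryptophan enzyme, which interferon gamma is known to induce, was higher by 0.59 (limma, adjusted p = 0.000422). The call of Gars was lost without Met1 1 (-0.53), Met1 2 (-0.49), Met1 3 (-0.50) or DB7 3 (-0.48), and that of Kars without Met1 1 (-0.34).

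Among 6 tested regulators, Myc and Srebf1 were higher in Met1, 0 were lower and 4 did not pass (median 0.07). Of all tested genes 13.0% were higher and 17.9% lower. Myc, a transcription factor known to raise serine and glutamine metabolism genes, measured 7.67, 7.45 and 7.98 in Met1, against 6.48, 6.84, 7.27 and 7.27 in DB7 (0.73, SE 0.20; limma, adjusted p = 0.0248). Its call was lost without Met1 1 (0.75), Met1 3 (0.59) or DB7 2 (0.69). Srebf1, the regulator of lipid synthesis, differed by 1.33 (SE 0.16; limma, adjusted p = 0.000423).

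**Figure D4:**
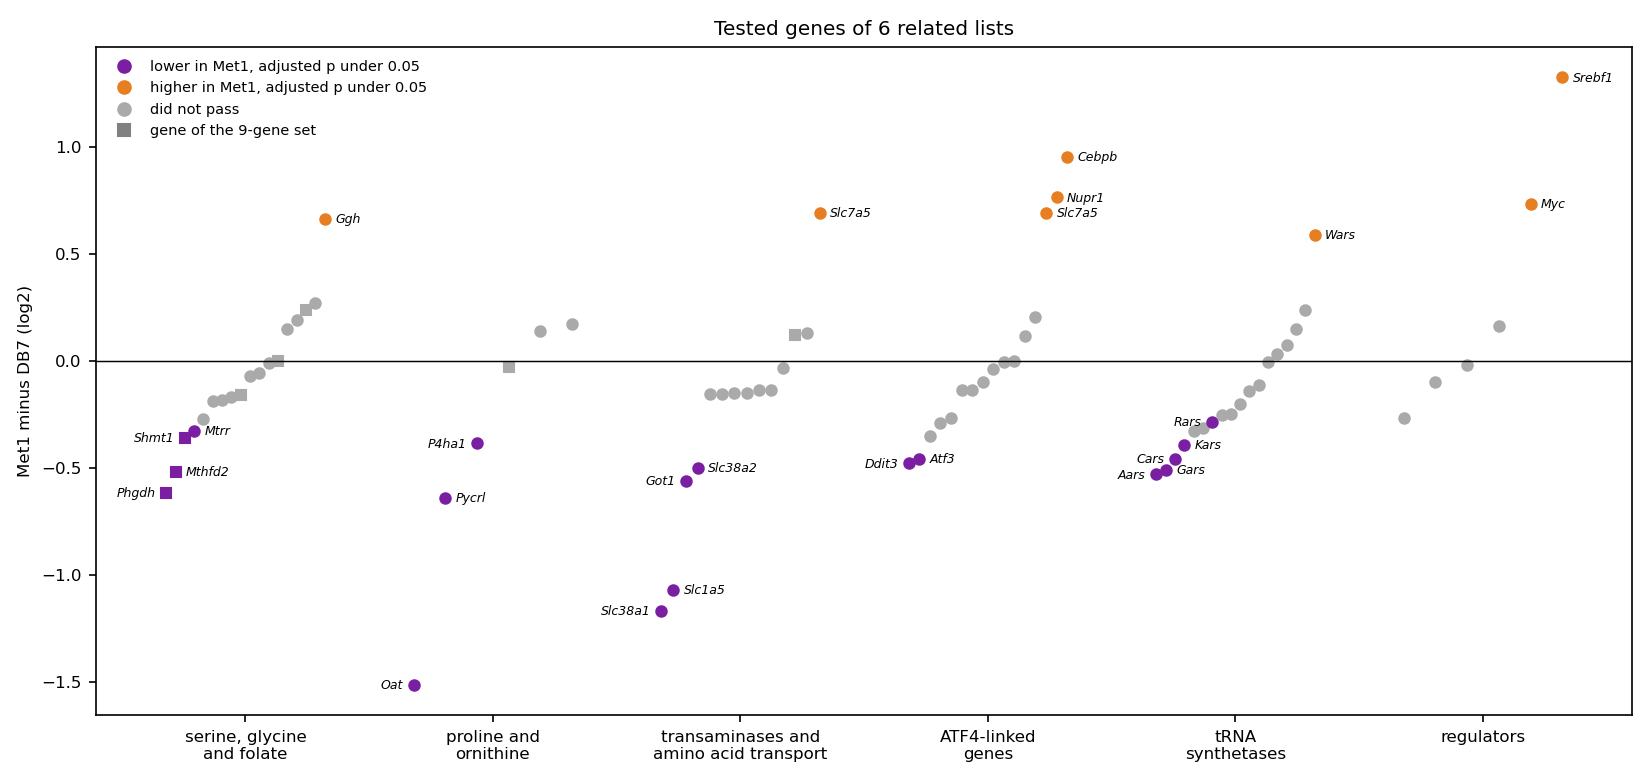
Met1 minus DB7 (log2) for each tested gene of 6 lists; purple points were lower and orange points higher in Met1 at an adjusted p under 0.05, and squares are genes of the set of 9. Phgdh, Mthfd2 and Shmt1 are the lowest points of the serine, glycine and folate list, and Oat at -1.51 is the lowest of all.

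The profile over the 7 arrays most like that of Mthfd2 (1419254_at) was sought among 7481 genes by the root mean square distance between values centred on their means. The nearest was Ccna2, cyclin A2, at a distance of 0.151 log2 units, with a mean of 8.65 in Met1 and 10.07 in DB7. Fuom, fucose mutarotase, followed at 0.152, and Oat at 0.153. The reference was taken for the largest difference among the tested probe sets followed here, and it passed the filter only through its DB7 values. Genes near it were therefore bound to show a similar gap between the lines. These distances describe 7 arrays in which many genes separate the lines.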

How the data were processed

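The deposited table holds 1 log2 value per probe set and array. The values were judged to be log2 from their range, and the authors' log base is not given in the sources used here. Per the submitters' processing notes RMA and MAS5 were used, with no role stated, and no version or build is given. The values were used as deposited. The precision is limited by the number of arrays. Of 22690 probe sets, 64 controls were left out. Genes were named by GEO's platform annotation and updated through RefSeq (GRCm38.p6).

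The 3 Met1 arrays were set against the 4 DB7 arrays by limma (version 3.58.1, R 4.3.3: lmFit, then eBayes with an intensity trend, two-sided), with p-values adjusted over 11704 probe sets. Lists took each gene's brightest tested probe set with that same adjusted p. Untested probe sets have differences from a fit without the filter. The members and lists were chosen with earlier results of these data known. The rule named every member probe set, up to 5 passing non-members of each list, some fixed genes and the 3 profiles nearest to the largest member difference. The alternatives were other filters, normalizations, array weights, no trend, a replicate block, other probe set choices and left-out arrays. The fit was tested on simulated data. The CCAAT and GC boxes were added after the data had been seen. A planned protein comparison of Shmt1 with Shmt2 was not run. Promoters are RefSeq's, with all 9 genes matched.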

Additional observations from a re-analysis of the deposited data

Results flagged for a closer look

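In DB7, 3 of the 30 sets of 4 values examined had an array far from the others, where chance gives about 1 in 20. The gap to the nearest array is given as a share of the group's range. For Shmt2 (1426423_at) DB7 2 lay low at 7.77, with a share of 0.884. For Aldh18a1 (1415836_at) DB7 1 lay at 7.58 above 3 identical values of 7.49, which makes the share 1.0. For the ratio of Psat1 over Phgdh DB7 1 lay low at -1.48, with a share of 0.863. Without DB7 1 that ratio still differed between the lines by 0.73.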

How the results depend on the processing

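Of the 25 probe sets 9 were lower and 0 higher in the main fit. With array weights or quantile normalization 1 was higher in Met1, and without probe sets ending in _x_at and _s_at 5 were lower, since all 4 of Phgdh end so. Among the lists, 2 serine and folate genes were higher under median centring or quantile normalization and 0 without DB7 1 and DB7 4. Without those 2 arrays 6 ATF4-linked and 8 tRNA synthetase genes were lower, and with array weights 4 ATF4-linked genes were lower. With array weights or quantile normalization 2 tRNA synthetases were higher. Among regulators 1, Atf4, was lower with array weights, without the trend and without DB7 1 and DB7 4. Under the filter on all 7 arrays 1 regulator was higher. For these list counts the cause was not tested. Mthfd2 over Shmt2 differed by -0.94 with the mean of all of a gene's probe sets, dim ones included. Without DB7 1 and DB7 4 the 3 called ratios differed by 0.75 (Psat1 over Phgdh), -0.45 (Psph over Psat1) and 0.33 (Shmt2 over Shmt1), in too few arrays for an adjusted p under 0.05.

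Leaving out each array in turn gave 1266 (without Met1 2) to 2193 (without DB7 1) lower and 1006 to 1593 higher tested probe sets. Of the 25 probe sets 7 to 9 were lower and 0 to 1 higher. Lower and higher genes numbered 2 to 4 and 0 to 1 for serine and folate, 2 to 3 and 0 for proline, 2 to 4 and 0 to 1 for transaminases and transport, 1 to 4 and 1 to 3 for ATF4, 2 to 8 and 1 to 2 for tRNA synthetases, and 0 to 1 and 1 to 2 for regulators. The ratio differences spanned 0.73 to 0.91 (Psat1 over Phgdh), -0.49 to -0.34 (Psph over Psat1), 0.33 to 0.40 (Shmt2 over Shmt1), -0.63 to -0.42 (Mthfd2 over Shmt2) and -0.21 to -0.02 (Gpt2 over Psat1). No called value changed sign in any alternative run.

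Same-numbered deviations correlated at -0.17, -0.05 and 0.02, within the -0.23 to 0.21 of arrays with different numbers. The replicate numbers thus showed no pairing of the arrays, though so few arrays cannot settle it. With the number as a replicate block, 1488 tested probe sets were lower and 1315 higher, 7 of the 25 were lower and 0 higher, and 2 serine and folate genes were lower and 0 higher. The calls lost were those of Phgdh 1456584_x_at (-0.33, limma, adjusted p = 0.0727), Shmt1 1425177_at (-0.27, 0.0853), Mtrr (-0.32, 0.0746), Ggh (0.69, 0.0817) and P4ha1 (-0.34, 0.124). No other named call changed.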
